A study of Mus musculus with 6 samples.

Results

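Transcripts of 5 matrix metalloproteinase genes, Mmp8, Mmp9, Mmp12, Mmp13 and Mmp27, and of the protease inhibitor gene Serpinb2 are described here across 6 RNA-seq libraries of mouse splenic natural killer (NK) cells. The 6 genes were taken by symbol from the 559 genes of the authors' table of oleic acid against control, in which each gene has a Q value of at most 0.0499. They were thus chosen from measured values of the same comparison, and their differences between the groups are given as a description, without a test. The cells of all libraries came from the spleen of C57BL/6 mice and were cultured for 36 h. In 3 libraries oleic acid (OA), a common dietary fatty acid, had been added at 0.2 mM, and in 3 control libraries it had not. The labels say that the treatment was carried out a single time and do not tie the replicates to separate animals, so the spread between replicates may be technical. The question of the study was how OA changes gene expression in NK cells.

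Matrix metalloproteinases are zinc-dependent enzymes that cut proteins of the extracellular matrix, such as collagens and elastin, and also release or trim cytokines and cell surface proteins. They are made as inactive proenzymes and activated by other proteases, among them plasmin, and they are held in check by tissue inhibitors (TIMPs). Plasmin in turn is made from plasminogen by the urokinase and tissue plasminogen activators, which the serpin encoded by Serpinb2, plasminogen activator inhibitor 2, can block. Mmp8, Mmp9, Mmp12 and Serpinb2 are best known from neutrophils and macrophages rather than from NK cells.

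Values are in TPM, which counts the transcripts of a gene, corrected for length, relative to all transcripts of its library on one common scale, so that levels of different genes can be set side by side. TPM keeps no read numbers, and the depth of the libraries and the counting error are unknown. The listed genes together held 12.2% to 12.6% of the transcripts of a library, and the level of genes not listed was not analysed here. In these bulk samples, fewer cells of a type and less RNA per cell cannot be told apart. Of 17 NK cell marker genes on a fixed list, 10 were listed and present in every library, among them Ncr1, which encodes the NK receptor NKp46, at 126.12 to 139.85 TPM in control and 79.06 to 104.92 TPM in OA. Control replicate 3 stood apart from the other controls, and OA replicate 3 carried heart muscle transcripts: 14 listed heart muscle genes summed to 7036 TPM there, to 519 TPM in OA replicate 2 and to between 35.8 and 60.0 TPM in the other 4 libraries. The differences of the 6 genes are therefore also given without replicate 3 of both groups, and those of other genes where that changes them by over 1.5 times or ends a call.

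Mmp8, which encodes neutrophil collagenase (collagenase 2), an enzyme that cleaves fibrillar collagens, was the most abundant of the metalloproteinase transcripts. It stood at 418.31, 459.16 and 345.18 TPM in control replicates 1, 2 and 3. The OA libraries, in the same order, held 541.09, 596.28 and 586.24 TPM. All 3 OA libraries were above all 3 controls, and the lowest OA library exceeded the highest control by 81.9 TPM. The group means were 408 ± 57.7 and 575 ± 29.4 TPM (SD, n = 3 per group), a 1.41-fold difference. On the log2(TPM + 1) scale used for all differences here, OA minus control was 0.50 (SE 0.118), and 0.37 without replicate 3 of both groups.

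Mmp13, which encodes collagenase 3, another fibrillar collagenase, was far lower in level. It stood at 14.17, 15.81 and 14.31 TPM in the controls and at 20.79, 26.02 and 20.85 TPM in the OA libraries. The controls lay close together, OA replicate 2 was the highest library, and the groups did not overlap. The means were 14.8 ± 0.909 and 22.6 ± 3.0 TPM, and the difference was 0.57 (SE 0.106), or 0.60 without replicate 3 of both groups. In a given library Mmp13 was 3.39% to 4.36% of the level of Mmp8.

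Mmp9, which encodes gelatinase B, an enzyme that digests denatured collagen and type IV collagen of basement membranes, was the lowest of the 6 genes and had the largest difference. It stood at 3.30, 3.26 and 2.0 TPM in the controls and at 6.55, 6.40 and 6.60 TPM in the OA libraries. The lowest OA library was 1.94 times the highest control. The OA libraries spread by 1.6% of their mean (coefficient of variation) and the controls by 25.9%, with control replicate 3 well under the other 2. The means were 2.85 ± 0.739 and 6.52 ± 0.104 TPM, 2.28-fold apart. The difference was 0.98 (SE 0.154) and 0.80 without replicate 3 of both groups. At this level the size depends on the pseudocount: with 0.1 in place of 1 it was 1.20, which is also the log2 fold change in the authors' deposited table, and with 5 it was 0.56. Of the 82 genes with a log2 fold change of 1 or more in the authors' deposited table, Mmp9 was the 1 member of this group.

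Mmp12, which encodes macrophage elastase, the elastin-degrading enzyme of macrophages, had the smallest difference and a small spread. It stood at 115.77, 126.66 and 107.23 TPM in the controls and at 147.78, 154.34 and 149.77 TPM in the OA libraries. The groups did not overlap, and the OA libraries spread by 2.23% of their mean. The means were 117 ± 9.74 and 151 ± 3.36 TPM, and the difference was 0.37 (SE 0.0738), or 0.32 without replicate 3 of both groups.

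Mmp27, one of the less studied members of the family, stood at 6.61, 8.52 and 5.78 TPM in the controls and at 10.07, 11.12 and 12.57 TPM in the OA libraries. The groups did not overlap, with the highest control 1.55 TPM under the lowest OA library. The means were 6.97 ± 1.41 and 11.3 ± 1.26 TPM, and the difference was 0.63 (SE 0.150), or 0.44 without replicate 3 of both groups. Mmp27 lies 2909 bases downstream of Mmp8 on the same strand. Its level as a share of that of Mmp8 was between 1.58% and 1.86% in the controls and between 1.86% and 2.14% in the OA libraries. Whether any of the Mmp27 signal came from transcripts that ran on from Mmp8 was not tested.

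Serpinb2, the inhibitor of the group, stood at 340.87, 357.50 and 231.08 TPM in the controls and at 477.50, 541.39 and 567.21 TPM in the OA libraries. Control replicate 3 was well under the other 2 controls, and all OA libraries were above all controls, by at least 120.0 TPM. The means were 310 ± 68.7 and 529 ± 46.2 TPM, 1.71-fold apart. The difference was 0.79 (SE 0.188), and 0.54 without replicate 3 of both groups. Of the 6 genes it had the largest difference in absolute terms, 219 TPM, against 167 TPM for Mmp8 and 3.66 TPM for Mmp9.

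**Figure D1:**
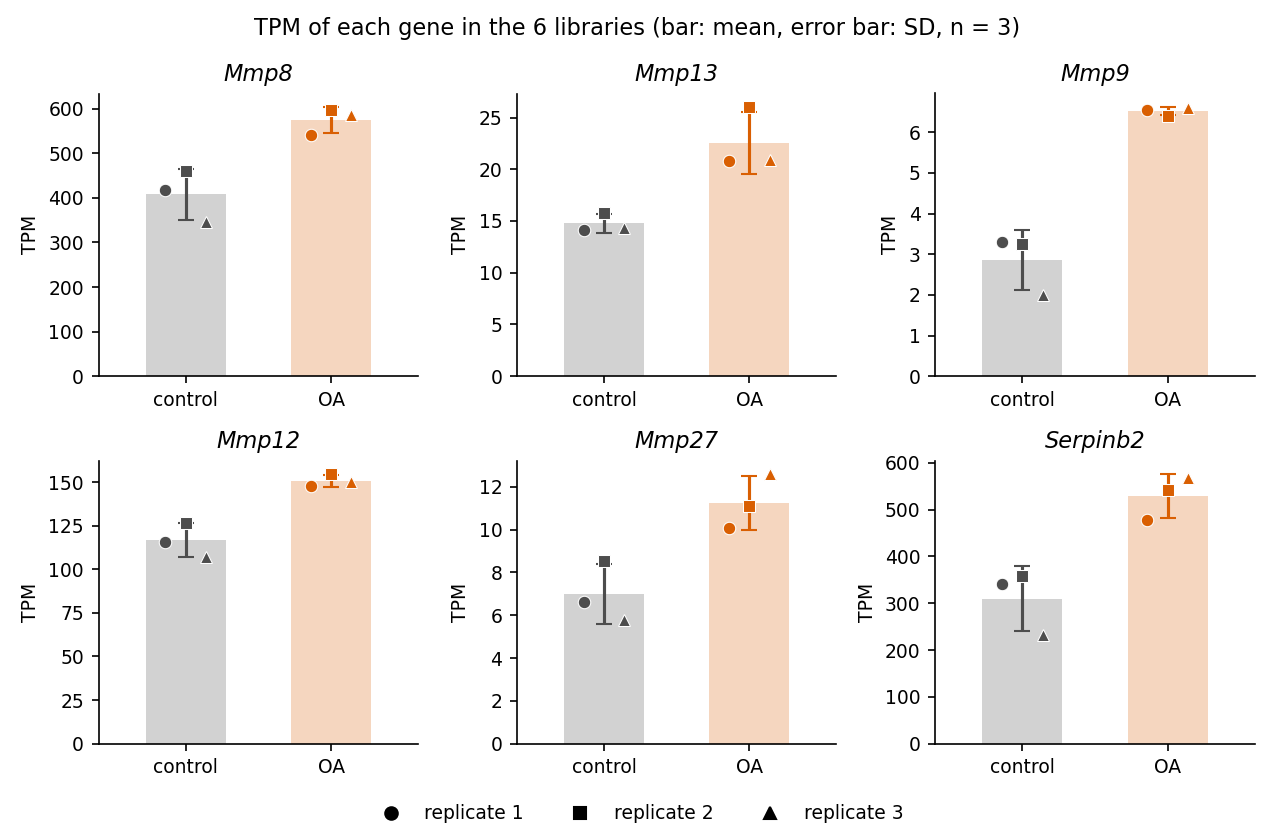
TPM of the 6 genes in control and OA libraries, one panel per gene with its own axis from 0; symbols are replicates, bars are means and error bars are SD (n = 3). In every panel all 3 OA points lie above all 3 control points, and the triangle of control replicate 3 is the lowest control in 5 of the 6 panels.

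The 6 genes covered a wide range of levels in the same order in both groups. From the highest mean to the lowest they ran Mmp8, Serpinb2, Mmp12, Mmp13, Mmp27 and Mmp9. Mmp8 and Serpinb2 were neighbours whose ranges overlapped in both groups, although Mmp8 was the higher in each of the 6 libraries. Their means differed 1.31-fold in control and 1.09-fold in OA. The other 4 steps in the order were between ranges that did not overlap, the widest being from Mmp12 to Mmp13, 7.89-fold in control and 6.68-fold in OA. Mmp8 made up 72.7% to 75.5% of the summed TPM of the 5 metalloproteinase genes in each library, so that this sum, 474.5 to 613.4 TPM in control and 726.3 to 794.2 TPM in OA, mostly shows Mmp8.

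The differences ranged from 0.37 for Mmp12 to 0.98 for Mmp9, with a median of 0.60, against a median of 0.14 over all 559 genes. The median of all genes falls between the higher and the lower genes and turned to -0.13 when genes with a mean under 1 TPM were left out. The OA libraries were above all controls for 6 of the 6, and for 45.1% of the table. Since the table and the group were selected on this comparison, this count describes the genes and supports nothing further. Limma, fitted to all 559 genes, called 36.0% of the table higher and 40.1% lower at a Benjamini-Hochberg adjusted p under 0.05. Its calls are used below for genes outside the group. Each listed gene had already passed the authors' test of this comparison on the same libraries. The calls and adjusted p are therefore descriptive and are not a second, separate test. Scaling the libraries to equal medians left 162 genes called higher and 82 lower in place of 201 and 224. Ranked by difference among the 559, Mmp9 was at position 48, Serpinb2 at 76, Mmp27 at 100, Mmp13 at 110, Mmp8 at 130 and Mmp12 at 175.

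**Figure D2:**
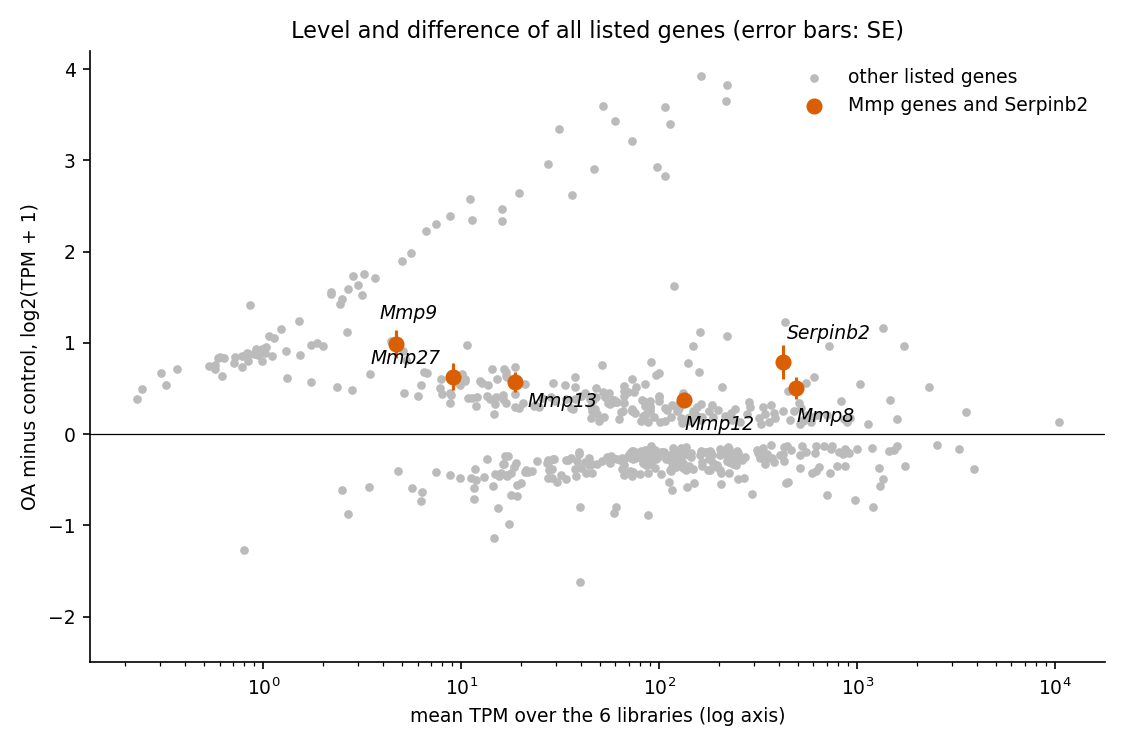
Mean TPM over the 6 libraries (log axis) against OA minus control on the log2(TPM + 1) scale for all 559 listed genes, with the 5 Mmp genes and Serpinb2 in colour and their SE as error bars. The 6 genes lie between 0.37 and 0.98; the arm of grey points that reaches above 2 holds the heart muscle genes among others.

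The order of the libraries within a group was much the same for most of the 6 genes. Control replicate 3 was the lowest control for 5 of the 6 (Mmp13 was lowest in control replicate 1), and control replicate 2 was the highest for 5 (Mmp9 was highest in control replicate 1). OA replicate 1 was the lowest OA library for 5, with Mmp9 as the exception. The place of control replicate 3 was common in the table: of the 201 genes called higher in OA, control replicate 3 was the lowest control for 168, and of the 224 called lower it was the highest control for 203. The same was not counted over the table for the places of control replicate 2 and OA replicate 1. Without control replicate 3 alone, the differences ran from 0.31 for Mmp12 to 0.81 for Mmp9, and that of Serpinb2 was 0.59 in place of 0.79.

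Markers of other cell types also differed between the libraries, some in the direction of the 6 genes and some in the opposite one. Of 23 monocyte and macrophage markers 9 were listed, and their sum was lowest in control replicate 3, at 2201 TPM, was 2403 and 2495 TPM in the other 2 controls, and was 2760 to 2896 TPM in OA. Limma called 7 of these 9 genes higher and 2 lower, the latter being Ly6c2 and Ccr2, which are used as markers of inflammatory monocytes. Unlike the sum of the list, both were highest in control replicate 3, and which cells carried them was not tested. The difference of Ccr2 was -0.25, and -0.13 and not called without replicate 3 of both groups. The listed NK cell markers ran the other way from the monocyte and macrophage sum, with 10 of 10 called lower. Their sum was highest in control replicate 3, at 5145 TPM, and stood at 2825 to 3629 TPM in OA. The 6 listed B cell markers, of 12, summed to 323 to 403 TPM in control and 503 to 592 TPM in OA. Limma called 5 of these 6 markers higher. It called 5 higher with libraries scaled to equal medians, 4 without control replicate 3 and 6 without replicate 3 of both groups. Of 10 basophil and mast cell markers 3 were listed, and of 10 T cell markers 2, and all 5 were called lower. With libraries scaled to equal medians, limma called 5 of the 10 NK cell genes, 4 of the 9 monocyte and macrophage genes (3 higher, 1 lower) and 3 of the 5 basophil, mast cell and T cell genes. Without control replicate 3 it called 0 of the 10, 4 of the 9 (all higher) and 0 of the 5, and without replicate 3 of both groups 8, 5 (4 higher, 1 lower) and 5. No listed gene of these lists changed sign in these settings. None of the 14 neutrophil markers and none of the 10 dendritic cell markers was listed, so neither cell type could be followed through its markers. Which cells carried the Mmp and Serpinb2 transcripts, and the part of the cell mixture in their differences, was not tested.

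**Figure D3:**
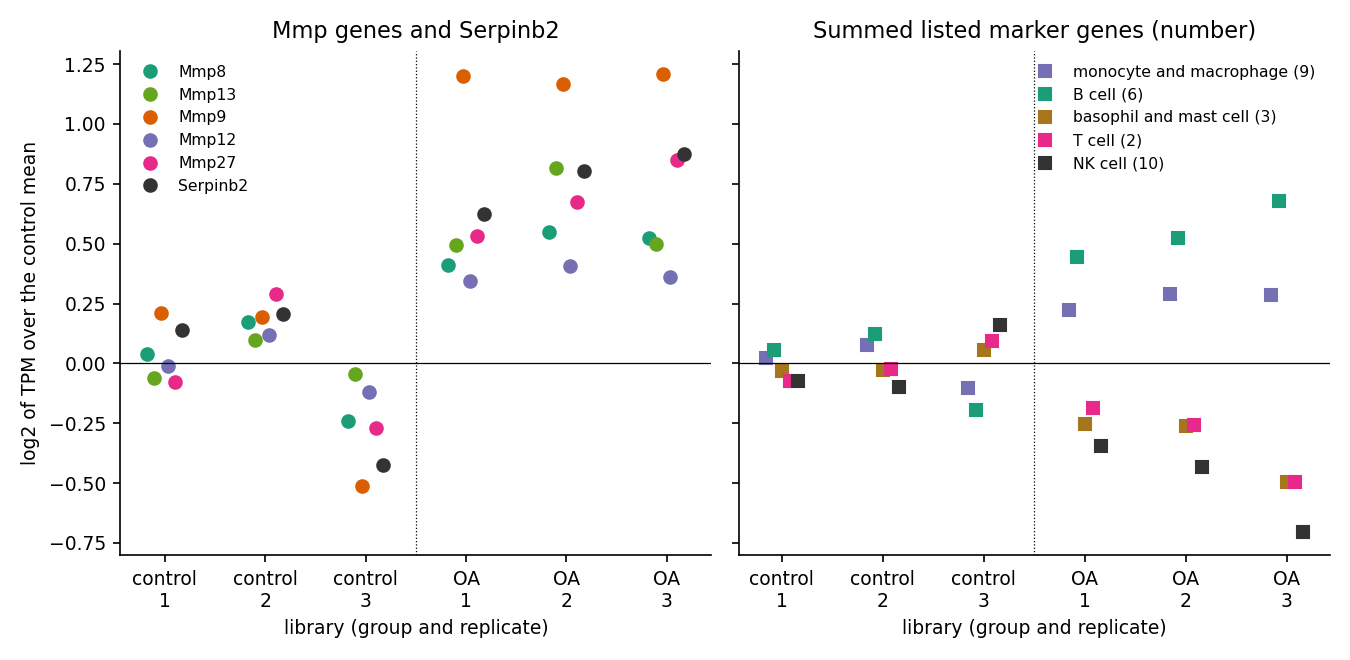
Left, log2 of the TPM of each of the 6 genes over its control mean in each library; right, the same for the summed TPM of the listed marker genes of 5 cell types, with their number in brackets. The 6 genes, the monocyte and macrophage sum and the B cell sum are high in OA and, except for Mmp13, lowest in control replicate 3, and the NK, T and basophil sums are highest in control replicate 3 and low in OA.

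Set against single myeloid genes of the same library, a comparison chosen after the data were seen, the result depended on the gene taken. Itgam, Adgre1 and Clec4d, surface proteins of macrophages and other immune cells, were themselves higher in OA by 0.16, 0.18 and 0.21. Their levels stood between 277 and 769 TPM in every library, and which cells carried them was not tested. Without replicate 3 of both groups Itgam, Adgre1 and Clec4d were higher by 0.15, 0.13 and 0.14 and limma called none of the 3. The ratio of each of the 6 genes to each of these 3 was higher in all OA libraries than in all controls. These ratios were not computed for the other listed genes, and the 6 were chosen from this comparison. Such counts therefore describe the 6 genes and do not set them apart from the table. Per Adgre1, the macrophage marker F4/80, the difference was 1.05 for Mmp9, 0.61 for Serpinb2, 0.52 for Mmp27, 0.42 for Mmp13, 0.32 for Mmp8 and 0.19 for Mmp12. Cd14, the lipopolysaccharide co-receptor of monocytes and macrophages, was itself higher by 0.56. Per Cd14, the OA libraries were above all controls for 2 of the 6 genes, Mmp9 (0.67) and Serpinb2 (0.23). The ratio of Mmp8 to Cd14 was 0.893, 0.928 and 0.913 in the controls and 0.877, 0.902 and 0.852 in the OA libraries, groups that overlapped. For Mmp12 the ratio to Cd14 was lower in all OA libraries, 0.218 to 0.240 against 0.247 to 0.284. Without replicate 3 of both groups the differences per Cd14 were 0.57 for Mmp9, 0.14 for Serpinb2, -0.033 for Mmp8 and -0.088 for Mmp12, and 0.23 in place of 0.046 for Mmp13. Per Adgre1 they then ran from 0.19 for Mmp12 to 0.85 for Mmp9, with 0.41 for Serpinb2. Taking a ratio shifts all 6 genes by the marker's own difference, so the order of the genes is the same whichever marker is used. No ratio was taken to the listed B cell markers or to the other listed monocyte and macrophage markers. The differences of these other monocyte and macrophage markers ran from -0.62 for Ly6c2 to 1.62 for Arg1. The rise of Arg1 was larger than that of each of the 6 genes.

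**Figure D4:**
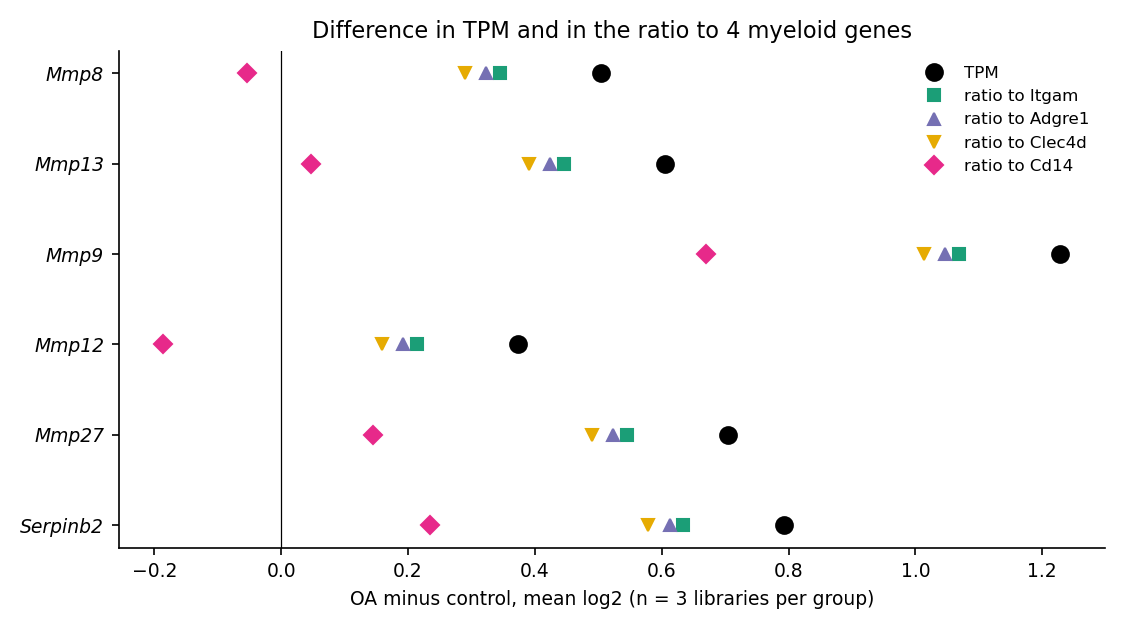
OA minus control of the mean log2 TPM (circles) and of the mean log2 ratio to Itgam, Adgre1, Clec4d and Cd14 for each of the 6 genes (no pseudocount, 3 libraries per group). Ratios to Itgam, Adgre1 and Clec4d are above 0 for the 6 genes, while the ratio to Cd14 is below 0 for Mmp8 and Mmp12.

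Other genes of the matrix protease system were taken from 8 lists with 144 genes, of which 21 were listed; limma called 14 higher and 4 lower and did not call 3. These genes, too, were in the table because they had passed the authors' test, of which 36.0% and 40.1% were called higher and lower in all. None of the 18 other metalloproteinase genes and none of the 6 inhibitor genes, Timp1 to Timp4 among them, was listed. Of 14 genes of plasminogen activation 1 was listed, Plaur, which encodes the urokinase receptor. It rose from 211 ± 10.1 to 247 ± 7.42 TPM, a log2 difference of 0.23 with an SE of 0.0572 (limma, adjusted p = 0.0283). Serpinb2 was 1.15 to 1.64 times the level of Plaur in the controls and 2.0 to 2.24 times in the OA libraries.

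Of the 25 other clade B serpin genes 1 was listed, and it went the other way from Serpinb2. Serpinb9, which encodes an inhibitor of granzyme B that cytotoxic cells carry, fell from 554 ± 24.6 to 473 ± 39.2 TPM, a log2 difference of -0.23 with an SE of 0.0799 (limma, adjusted p = 0.0457). Without replicate 3 of both groups the difference was -0.12, and without control replicate 3 it was -0.19 and was not called (limma, adjusted p = 0.109). Serpinb9 was 1.52 to 2.52 times the level of Serpinb2 in the controls, and 0.754 to 1.04 times in the OA libraries. The 2 ranges did not overlap.

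Of 22 other proteases that act on matrix 3 were listed. Ctsl, the gene of the lysosomal protease cathepsin L, rose 1.6-fold, from 76.3 ± 11.9 to 122 ± 16.8 TPM, and Ctsb, which encodes cathepsin B, rose 1.13-fold. The log2 difference of Ctsl was 0.67, and 0.44 without replicate 3 of both groups. Furin, which encodes a convertase that cleaves many proproteins, among them those of membrane-type metalloproteinases, fell to 0.786 of the control level. Of 20 matrix substrates and partners 5 were listed, of which 4 rose. Thbs1, which encodes the matrix glycoprotein thrombospondin 1, rose from 480 ± 83.8 to 733 ± 38.6 TPM, Spp1 (osteopontin) 1.66-fold, Vcan (the proteoglycan versican) 1.47-fold and Itgam 1.12-fold. Without control replicate 3 the log2 difference of Spp1 was 0.50 in place of 0.75 and was not called (limma, adjusted p = 0.0621). Col3a1, a collagen gene, was not called and stood at 0.23 to 0.30 TPM in the controls and 0.50, 0.60 and 2.81 TPM in the OA libraries.

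Cytokines and prostaglandin enzymes known to induce metalloproteinase genes were the most frequently listed, 7 of 15, with 6 called higher and 1 lower and a median difference of 0.33. Il1b and Il1a, the genes of interleukin 1, rose 1.19-fold, from 3246 ± 137 to 3850 ± 111 TPM, and 1.3-fold, from 1266 ± 70.8 to 1645 ± 44.7 TPM. Tnf rose 1.14-fold and Ptgs2, the gene of cyclooxygenase 2, 1.29-fold. Csf2, which encodes the cytokine GM-CSF, was the 1 gene of the list that fell, to 0.761 of the control level, a log2 difference of -0.39, and -0.26 without replicate 3 of both groups. Of 24 AP-1, ETS and NF-kB transcription factor genes, 4 were listed. Fos, a subunit of AP-1, rose 1.45-fold, from 62.5 ± 3.13 to 90.4 ± 12.6 TPM. The AP-1 gene Jund fell to 0.866 of the control level, while Junb (adjusted p = 0.0514, limma) and Ets1 (adjusted p = 0.0588, limma) did not pass. In place of 18 genes of these lists, limma called 16 without replicate 3 of both groups, where Ctsb, Itgam and Jund did not pass and Col3a1 did. The log2 differences were then 0.12 for Ctsb, -0.16 for Jund, 0.29 for Col3a1 and -0.11 for Ets1. With all libraries they were 0.17, -0.21, 0.74 and -0.20. With libraries scaled to equal medians limma called 11, and Serpinb9 (limma, adjusted p = 0.0840), Furin, Jund, Ctsb, Spp1, Itgam and Tnf did not pass. Without control replicate 3 it called 8, and Fos, Plaur, Csf2, Tnf, Furin, Jund, Ctsb, Itgam, Serpinb9 and Spp1 did not pass. Without control replicate 2 it called 6. Without control replicate 1 or without OA replicate 2 it called 0, and 0 genes in the whole table. At an unadjusted p under 0.05 in limma, the whole table then held 171 higher and 168 lower, and 159 and 168.

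Of the 6 genes, 4 lie in one cluster of metalloproteinase genes. RefSeq places 10 of them in 427 kb of chromosome 9 (chr9:7272514-7699585, GRCm38, which is the build mm10 named in the submitters' processing notes). Mmp13 (chr9:7272514-7283333) comes first, followed by Mmp12 (chr9:7344397-7360461), Mmp8 (chr9:7558429-7568486) and Mmp27 (chr9:7571396-7581885), all on the plus strand. The other 6 genes of the cluster, Mmp1a, Mmp1b, Mmp3, Mmp7, Mmp10 and Mmp20, were not listed. Listed genes were therefore not all side by side. Mmp13 and Mmp12 are neighbours in the cluster, as are Mmp8 and Mmp27, and between Mmp12 and Mmp8 lie 4 genes that were not listed. Within 500 kb of any of the 4, no other protein-coding gene was listed. Mmp9 lies alone on chromosome 2 (chr2:164940326-164955850), with 42 protein-coding genes within 500 kb of which 0 were listed. Serpinb2 lies on chromosome 1 (chr1:107500892-107525600) among 9 other Serpinb genes, of which 0 were listed.

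**Figure D5:**
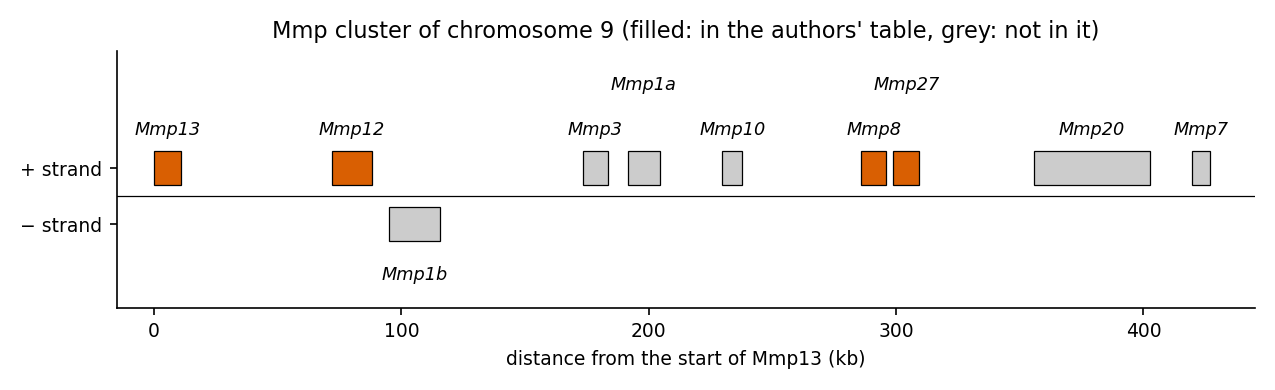
The 10 metalloproteinase genes of the chromosome 9 cluster, by distance from the start of Mmp13 in kb and by strand, filled where the gene is in the authors' table and grey where it is not. The 4 filled genes are spread over 309 kb with 4 grey genes between Mmp12 and Mmp8.

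Reads that could belong to more than one gene bear on these values. In GENCODE M21 transcripts, 0 of the 50-base stretches of Mmp8, Mmp9, Mmp13 and Mmp27 occurred in another gene, and 0.498% of those of Mmp12 did, none of them in another gene of the group. For Serpinb2 10.4% of the stretches were shared with Serpinb10, which overlaps it on the same strand, so part of the Serpinb2 value could have been split with Serpinb10. Mmp12 overlaps the opposite-strand gene Mmp1b in GENCODE, and Mmp8 and Mmp27 both overlap the opposite-strand RefSeq gene Gm31751. The sources used here do not give whether strand was used in the counting.

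The promoters of the 6 genes, which lie on 3 chromosomes, were compared as a description. The genes were chosen with earlier results of this comparison known, so their common direction is no sign of shared control. RefSeq start sites were matched for 5 of the 6 genes, all but Mmp9, with 7 windows of the 250 bases before a start (GRCm38.p6). Both strands were searched for the AP-1 site TGAGTCA, whose reverse complement reads TGACTCA. The same was done for the TATA box, spelled TATAAA, for the ETS core, spelled GGAA, and for the NF-kB motif. The AP-1 site was found in Mmp13, 35 to 29 bases before the start, and before the second start of Mmp12, at 44 to 38 bases, and in 4.46% of all 32851 RefSeq windows of this length. A TATA box was found in Mmp13 and in both overlapping windows of Serpinb2, and in 12.4% of all windows. The ETS core occurred in all 7 windows and in 93.4% of all, and the NF-kB motif in 0 of the 7 and in 3.90% of all. Each match is a run of letters and not a measured binding site. The windows of Mmp13 and of the second start of Mmp12 are shown for their AP-1 match, that of Serpinb2 for its TATA box and that of Mmp8 as the most abundant gene, in which neither was found. Letters run 5′ to 3′ on the plus strand, the last base lies just before the start, and capitals mark AP-1 sites and TATA boxes.
Mmp13, chr9:7272264-7272513: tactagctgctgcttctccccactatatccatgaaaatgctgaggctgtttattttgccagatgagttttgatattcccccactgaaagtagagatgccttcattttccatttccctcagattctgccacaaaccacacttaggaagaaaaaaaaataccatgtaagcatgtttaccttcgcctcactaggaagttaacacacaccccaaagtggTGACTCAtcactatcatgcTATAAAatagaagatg
Mmp12, second start, chr9:7347124-7347373: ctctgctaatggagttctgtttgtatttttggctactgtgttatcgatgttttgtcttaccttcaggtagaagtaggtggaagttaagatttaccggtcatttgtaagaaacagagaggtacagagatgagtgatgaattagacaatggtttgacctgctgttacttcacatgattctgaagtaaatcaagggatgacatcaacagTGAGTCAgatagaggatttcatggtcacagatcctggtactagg
Serpinb2, first start, chr1:107511173-107511422: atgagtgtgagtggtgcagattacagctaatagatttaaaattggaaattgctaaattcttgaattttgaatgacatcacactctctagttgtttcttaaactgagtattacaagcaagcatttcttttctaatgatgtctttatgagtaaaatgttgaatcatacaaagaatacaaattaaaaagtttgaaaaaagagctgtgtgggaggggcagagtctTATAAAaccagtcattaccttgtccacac
Mmp8, chr9:7558179-7558428: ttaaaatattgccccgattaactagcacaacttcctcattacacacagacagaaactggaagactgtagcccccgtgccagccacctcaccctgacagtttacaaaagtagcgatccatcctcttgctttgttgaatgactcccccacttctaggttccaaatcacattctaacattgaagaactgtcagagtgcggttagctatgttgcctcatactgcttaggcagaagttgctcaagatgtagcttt

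The AP-1 letters thus stand before the start of Mmp13 and before the second start of Mmp12, which lies inside that gene. The windows of the first start of Mmp12, of Mmp8, of Mmp27 and of Serpinb2 held none. Both starts used for Serpinb2 also lie inside the span given above for that gene, which begins at chr1:107500892. The bases before that beginning were not searched. Whether the motifs bear on the differences of the genes was not tested.

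Likeness of pattern was measured as the root mean square difference between 2 genes over the 6 libraries, on the log2(TPM + 1) scale after each gene was centred on its own mean, so that 0 is an identical pattern. Within the group the most alike were Mmp8 and Mmp12 (0.0921) and Mmp8 and Mmp27 (0.104), and the least alike were Mmp9 and Mmp12 (0.331). Among the other 553 genes, those nearest to Mmp12 were Dab2 (0.0143), Trib1 (0.0305) and Fam20c (0.0333). The nearest to Mmp8 were Vcan (0.0282), Dhrs3 (0.0312) and the chemokine gene Ccl3 (0.0322). Mmp27 was nearest to the chemokine gene Ccl2 (0.0521), the listed B cell marker Ly6d (0.0609) and the desaturase gene Scd1 (0.0765).

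The remaining 3 genes had less close partners. Mmp13 was nearest to Cacna1d (0.0747), Gm6377 (0.0819) and Il10 (0.10), the gene of interleukin 10. Serpinb2 was nearest to Fcrl5 (0.0593), Akr1b8 (0.0854) and Csf3 (0.0867), the gene of the cytokine G-CSF. Mmp9 was nearest to the chemokine gene Cxcl2 (0.0777), Fam71f2 (0.106) and the chemokine gene Ccl9 (0.111). Cxcl2 stood at 863.83 to 1374.55 TPM in control and 2107.07 to 2449.54 TPM in OA, so 2 genes at very different levels had similar patterns. For each gene of the group, all 3 of its nearest genes were closer to it than any other gene of the group. A shared pattern was thus not particular to the group. With a pseudocount of 0.1, 13 of these 18 nearest genes were again among the nearest 3.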

How the data were processed

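RNA of 6 libraries (3 control, 3 OA) was measured by RNA-seq. The tools listed per the submitters' processing notes are Bowtie2, RSEM 1.3.1 and DESeq2 1.4.5, with the build mm10 and no role or order given. Per the file headers, the table holds TPM per library and the authors' log2 fold change, P value and Q value. It lists 559 genes with Q under 0.05. TPM was used as deposited by the authors. Depth is unknown, so no count test was run.

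Columns were matched to samples by title. Limma 3.58.1 in R 4.3.3 was fitted to log2(TPM + 1) of all 559 genes, without filter or covariate, two-sided, with Benjamini-Hochberg adjustment; for the 6 genes its estimate and SE are given without p. The fit was tested on simulated data. The 6 genes and all lists were chosen with earlier results of these data known. Besides the 6, up to 4 listed genes per pathway list and 3 per marker list with the highest TPM may be named by rule. So may the 3 nearest genes of each of the 6. Adgre1, Arg1, Ncr1, Ly6c2, Ccr2, Col3a1 and Csf2 were named after their values were seen. Promoter windows and coordinates are from RefSeq (GRCm38.p6). Python 3.11.15 was used. Alternatives are given in the closing section.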

Additional observations from a re-analysis of the deposited data

How the results depend on the processing

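Of 102 values of the 6 differences under alternatives, 85 moved by less than the spread between replicates, 15 by more, and 2 changed sign; leaving out single libraries moved none beyond that spread, with ranges from 0.31 to 0.43 for Mmp12, 0.39 to 0.59 for Mmp8, 0.47 to 0.63 for Mmp13, 0.52 to 0.77 for Mmp27, 0.59 to 0.91 for Serpinb2 and 0.81 to 1.07 for Mmp9. Mmp9 was 1.20 with a pseudocount of 0.1, 0.56 with 5 and 1.20 in the authors' deposited table, where its low level makes the pseudocount matter. In the ratios to myeloid genes, added after the data were seen, Mmp8 was 0.32 (Adgre1), 0.34 (Itgam), 0.29 (Clec4d) and -0.055 (Cd14), Mmp12 0.19, 0.21, 0.16 and -0.19, and Mmp13 0.42 (Adgre1), 0.39 (Clec4d) and 0.046 (Cd14). Per Cd14, Mmp9 was 0.67, Mmp27 0.15 and Serpinb2 0.23. The cause was not tested.

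Calls in limma, 201 higher, 224 lower and 18 in the pathway lists, were less stable. At an adjusted p under 0.01 they were 0, 1 and 0. Libraries scaled to equal medians gave 82 lower and 11 in the lists. With the replicate number as a block, limma called 0, 0 and 0 (149 and 89 by unadjusted p). Whether same-numbered libraries were paired is not known. Their deviations correlated at 0.33, -0.11 and -0.08 across genes, and the highest correlation, 0.35, was between control replicate 2 and OA replicate 3. With 3 libraries per group, these values cannot decide whether there was a pairing. Leaving out single libraries gave 0 to 177 higher, 0 to 187 lower and 0 to 14 in the lists; without control replicate 1 and without OA replicate 2 all 3 counts were 0, without control replicate 2 they were 87, 13 and 6, and without control replicate 3 they were 119, 30 and 8. Without OA replicate 3, 138 were lower. Read depth is unknown, so what it limits for Mmp9 and Mmp27 could not be computed.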
